A study of Mus musculus with 6 samples.

Results

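The 8 genes described here belong to Schwann cells, the glia of peripheral nerves, and to the myelin that these cells wrap around axons: Pmp22, Mbp, Prx, Mag, Cnp, Ncmap, S100b and Sox10. They were chosen by symbol, with earlier results of these data known. They are 8 of the 22032 genes counted, and all 8 passed the filter on low counts. Expression was measured by RNA sequencing of the temporomandibular joint, the hinge between jaw and skull, in mice of 10 weeks. Knockout (KO) libraries came from Igf2bp2-/- mice and wild-type (WT) libraries from littermates, with 3 libraries in each group. Igf2bp2 encodes a protein that binds mRNA and recognises the methylated base m6A. Neither the allele nor the strain, sex or pooling of animals is given in the labels, and no other treatment is named.

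A Schwann cell wraps a single segment of an axon in many turns of its own membrane, which is compacted into myelin by a small set of abundant membrane and cytoplasmic proteins. SOX10 keeps the cell in the glial lineage and, together with EGR2, switches on the myelin genes. The axon signals to the Schwann cell through neuregulin and its ERBB receptors. Nerve fibres run through the joint capsule, the jaw muscles and the glands around the joint, so bulk tissue carries Schwann cell RNA. In bulk samples, fewer Schwann cells in the tissue taken, for whatever reason, and less of a transcript per Schwann cell cannot be told apart.

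KO 1 and KO 3 differed by no more than the counting noise of read pairs, as did WT 2 and WT 3, so each pair was summed and n is 2 samples per group. Leaving out KO 2 or WT 1 therefore leaves 1 sample in that group, which is assumed to vary like the other group's samples. Libraries held 28551236 to 35094127 counts, of which nuclear genes took 4604575 to 4899680 in KO and 2625472 to 3205190 in WT, the rest being mitochondrial. Igf2bp2 itself had 13, 14 and 10 counts in KO 1 to 3 against 38, 20 and 24 in WT 1 to 3 (log2 fold change -1.80, SE 0.39, edgeR false discovery rate, FDR, 0.00589). Of 14632 genes tested, 17.6% differed at an FDR under 0.05. Markers of cartilage were sparse in tissue labelled as joint. The cartilage collagen gene Col2a1 had 25 to 66 counts in a library, the aggrecan gene Acan 19 to 34 and Comp 137 to 264. The chondrocyte list summed to 12.2 to 14.5 CPM (counts scaled to a common library total) in KO and 15.3 to 16.1 CPM in WT. The fast muscle list summed to 7566 to 8806 CPM in KO and 4985 to 6892 CPM in WT.

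All 8 Schwann cell and myelin genes were lower in KO, by 1.75-fold to 3.08-fold, and each passed edgeR's quasi-likelihood test. Over all genes tested 8.48% were called lower, but the 8 were chosen with earlier results of these data known. In none of the 8 did a KO library reach the level of a WT library, which was so in this direction for 19.2% of all genes tested. Their median log2 fold change was -1.45, against -0.01 over all genes tested. Together the 8 genes summed to 299, 301 and 309 CPM in KO 1 to 3 and to 784.5, 764 and 750.2 CPM in WT 1 to 3. Raw counts fell as well, from 17312 to 22928 per WT library to 11726 to 12641 per KO library, although the KO libraries held more nuclear counts. CPM here is the count scaled to a common total with trimmed mean of M-values (TMM) factors, and group values below are mean ± SD over the 2 samples.

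Pmp22 and Mbp encode abundant proteins of compact myelin. Pmp22 encodes a small tetraspan membrane protein whose gene dose sets myelin stability, since its duplication and deletion each cause a human neuropathy. Its level was 109, 111 and 119 CPM in KO 1 to 3 and 344, 348 and 346 CPM in WT 1 to 3. The libraries of each group lay close together and far from those of the other group. The means were 112 ± 1.84 CPM in KO and 345 ± 2.26 CPM in WT, which is -1.62 on the log2 scale (SE 0.13, edgeR FDR 1.93e-06). Mbp encodes myelin basic protein, which holds the cytoplasmic faces of the membrane together. It had 130.5, 132 and 131.5 CPM in KO 1 to 3 and 295, 267 and 265.5 CPM in WT 1 to 3, with WT 1 the highest. The log2 fold change was -1.09 (SE 0.13, edgeR FDR 5.71e-05). The Mbp gene also gives rise to Golli transcripts, which other cells such as lymphocytes use, and counts per gene symbol do not separate them from myelin transcripts.

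Prx encodes periaxin, a scaffold of the Schwann cell membrane that links dystroglycan and DRP2 to the cytoskeleton outside compact myelin. It had 27.0, 23.9 and 28.2 CPM in KO 1 to 3 and 73.8, 77.2 and 70.9 CPM in WT 1 to 3. KO 2 was the lowest library, and the highest KO library was far below the lowest WT one. The log2 fold change of Prx was -1.52 (SE 0.12, edgeR FDR 1.74e-06).

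Mag, Cnp and Ncmap encode proteins of the uncompacted parts of myelin. Mag, the adhesion molecule that faces the axon, had 2.725, 2.48 and 1.88 CPM in KO 1 to 3 and 8.01, 6.05 and 5.90 CPM in WT 1 to 3. It rests on the fewest counts of the 8, 73 to 107 in a KO library, and WT 1 stood above the other WT libraries. Its log2 fold change was -1.54 (SE 0.18, edgeR FDR 5.07e-05), and -1.31 without WT 1. Cnp, a cyclic nucleotide phosphodiesterase that keeps cytoplasmic channels open in the sheath, had 11.5, 13.4 and 12.8 CPM in KO 1 to 3 and 22.6, 21.9 and 22.3 CPM in WT 1 to 3. Its fall was the smallest of the 8, at -0.81 (SE 0.11, edgeR FDR 0.000218). Ncmap, which encodes a noncompact myelin-associated protein, had 9.60, 8.21 and 7.65 CPM in KO 1 to 3 and 15.3, 17.4 and 17.5 CPM in WT 1 to 3. KO 1 was the highest KO library and WT 1 the lowest WT library, and the groups did not overlap. The log2 fold change of Ncmap was -0.96 (SE 0.12, edgeR FDR 8.85e-05).

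S100b and Sox10 mark Schwann cells whether or not they make myelin. S100b, a calcium-binding protein also made by chondrocytes and adipocytes, had 6.04, 6.98 and 5.74 CPM in KO 1 to 3 and 17.0, 18.2 and 15.1 CPM in WT 1 to 3. The lowest WT library stood well above the highest KO library, and the log2 fold change was -1.39 (SE 0.13, edgeR FDR 5.8e-06). Sox10, the lineage transcription factor, had 2.70, 2.98 and 2.60 CPM in KO 1 to 3 and 9.41, 8.30 and 7.38 CPM in WT 1 to 3. The means were 2.81 ± 0.230 CPM in KO and 8.61 ± 1.13 CPM in WT, which is -1.61 on the log2 scale (SE 0.16, edgeR FDR 1.26e-05). Its 95% interval of -1.96 to -1.27 overlapped that of Pmp22, -1.90 to -1.34. The interval of Cnp, -1.05 to -0.57, lay apart from both.

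**Figure D1:**
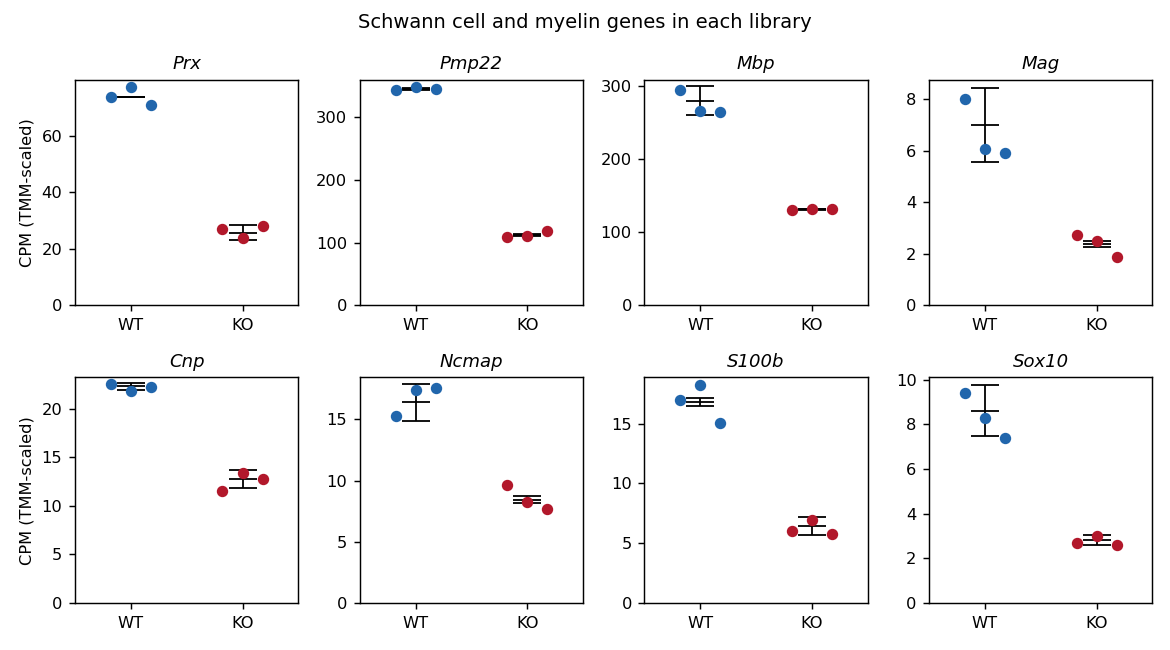
Expression of the 8 Schwann cell and myelin genes in CPM (vertical axes, each from 0) in the 3 WT and 3 KO libraries (points). Horizontal marks and bars are the mean ± SD over the 2 samples per group after close pairs were summed, so a bar can be narrower than the spread of the points. In each gene all KO libraries lie below all WT libraries.

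Counts of 5 of the 8 genes could include reads of a gene on the opposite strand, because the strand setting is not given. In the GENCODE M21 annotation Cnp overlaps Dnajc7 and S100b overlaps Dip2a, both protein-coding, and Prx, Mbp and Ncmap overlap an antisense RNA or pseudogenes. Dnajc7, a co-chaperone, had 22.5 ± 0.499 CPM in KO and 19.7 ± 0.130 CPM in WT, a difference of 0.19 on the log2 scale that did not pass (edgeR FDR 0.264). Dip2a had 5.09 ± 0.183 CPM in KO and 5.00 ± 0.348 CPM in WT (edgeR FDR 0.963). Neither partner was lower in KO. Pmp22, Mag and Sox10 overlap no other gene in that annotation.

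Among the upstream sequences that RefSeq lists for these genes (build GRCm38.p6), 6 of the 8 were matched by symbol. They were searched on both strands, over 250 bases before the transcript start and 50 after it, for the SOX motif ACAAAG and the EGR motifs GCGGGGGCG and GCGTGGGCG, because SOX10 and EGR2 are the known activators of myelin genes. The SOX motif was found for Mag and Cnp, that is 2 of 6, and occurs in 21.0% of the 27025 genes with a listed start. The EGR motifs were found for none of the 6 and occur in 3.93% of genes. The motifs do not overlap each other. The 250 bases before the start are shown for the pair of genes with a match, in capitals, and for Prx and Pmp22, which hold none. For Mag the first of 3 listed starts is shown, and the second, which overlaps it, holds the same match. For Pmp22 the first of 4 listed starts is shown. Sequences run 5′ to 3′ on the strand of the gene.
Mag, chr7:30914864-30915113, strand -: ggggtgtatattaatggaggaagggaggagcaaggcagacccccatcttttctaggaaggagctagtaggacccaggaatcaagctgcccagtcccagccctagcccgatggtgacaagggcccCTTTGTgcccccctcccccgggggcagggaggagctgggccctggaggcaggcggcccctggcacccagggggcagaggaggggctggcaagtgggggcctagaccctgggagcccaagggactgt
Cnp, chr11:100574689-100574938, strand +: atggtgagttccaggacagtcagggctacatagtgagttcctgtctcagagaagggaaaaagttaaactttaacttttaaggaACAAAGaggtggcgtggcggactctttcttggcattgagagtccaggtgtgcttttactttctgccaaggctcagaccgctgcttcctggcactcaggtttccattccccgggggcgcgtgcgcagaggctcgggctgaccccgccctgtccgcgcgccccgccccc
Prx, chr7:27499074-27499323, strand +: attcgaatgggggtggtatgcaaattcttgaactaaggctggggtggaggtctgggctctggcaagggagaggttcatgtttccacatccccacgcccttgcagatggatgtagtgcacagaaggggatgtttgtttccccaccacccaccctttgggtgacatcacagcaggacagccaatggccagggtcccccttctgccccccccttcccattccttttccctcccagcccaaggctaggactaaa
Pmp22, chr11:63128732-63128981, strand +: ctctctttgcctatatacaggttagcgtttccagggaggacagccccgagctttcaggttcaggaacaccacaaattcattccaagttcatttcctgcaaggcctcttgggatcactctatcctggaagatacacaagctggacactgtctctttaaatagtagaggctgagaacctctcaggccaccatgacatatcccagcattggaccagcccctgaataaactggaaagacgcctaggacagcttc
Mag carries the motif on its opposite strand, so it reads CTTTGT here, and Cnp carries it in the direction of transcription. Mag and Cnp differed in how far they fell, at -1.54 and -0.81, and Prx and Pmp22, without a match in this window, had -1.52 and -1.62. A match is a description of the letters and not a bound site.

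Levels of different genes were compared per kilobase of the longest GENCODE M21 transcript. In WT, Pmp22 was highest at 189.5 ± 1.24 CPM per kilobase, followed by Mbp at 58.5 ± 4.22, Prx at 13.6 ± 0.00751 and S100b at 11.3 ± 0.217. Ncmap (8.19 ± 0.765) and Cnp (7.69 ± 0.121) came next and did not differ beyond their spread. Sox10 (3.10 ± 0.407) and Mag (2.87 ± 0.591 CPM per kilobase) were lowest and also lay within their spread of each other. In KO the first 3 places were the same by this length, with Pmp22 at 61.6 ± 1.01, Mbp at 27.4 ± 0.153 and Prx at 4.74 ± 0.477 CPM per kilobase. Cnp, S100b and Ncmap were then at 4.40 ± 0.312, 4.34 ± 0.518 and 4.21 ± 0.147 CPM per kilobase, and neighbours in this order, Prx and Cnp included, did not differ beyond their spread. In WT S100b had stood above Ncmap and Cnp. Sox10 and Mag were again last, at 1.01 ± 0.0829 and 0.982 ± 0.0498 CPM per kilobase. Levels and order depend on which transcript is used. By median transcript length, KO levels were 7.001 CPM per kilobase for Ncmap, 6.42 for Cnp, 5.52 for Prx and 4.335 for S100b, so Prx then stood below Ncmap and Cnp in KO. Pmp22, for example, has transcripts with a median length of 733 bases and a longest one of 1822.

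**Figure D2:**
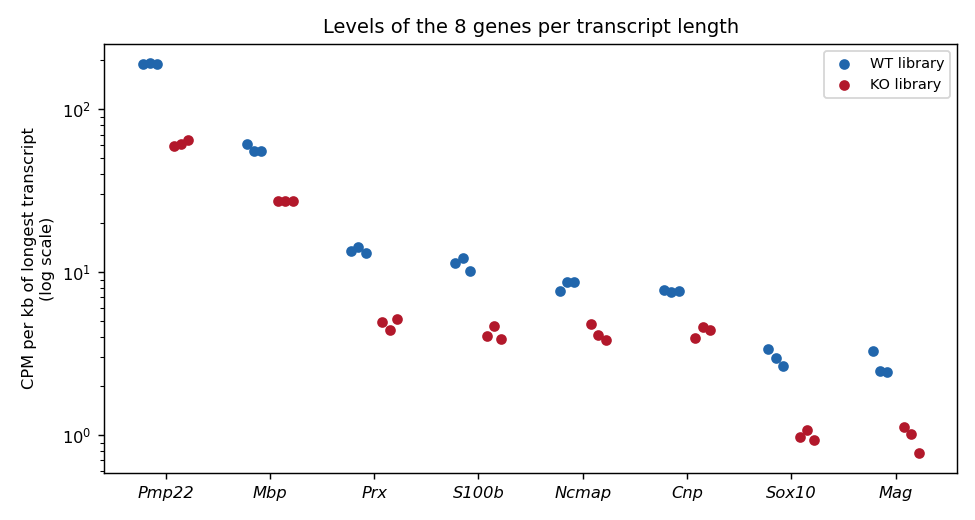
Levels of the 8 genes per transcript length, in CPM per kilobase of the longest transcript (vertical axis, log scale), for each WT and KO library (points), with genes ordered by their WT mean. Pmp22 and Mbp stand above the other genes in both groups, and S100b, Ncmap and Cnp lie closer together in KO than in WT by this length, which is not so by median transcript length (4.335 to 7.001 in KO, 11.2 to 13.6 in WT).

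The 8 genes did not all keep their proportions. For each gene the log2 ratio to the geometric mean of the other 7 was taken within each library, which removes library scaling. For Cnp this ratio ran from -0.80 to -0.68 in WT and from -0.38 to -0.11 in KO. For Ncmap it ran from -1.44 to -1.08 in WT and from -0.96 to -0.67 in KO, and for Mbp from 3.33 to 3.43 in WT and from 3.63 to 3.74 in KO. Cnp, Ncmap and Mbp thus took a larger share relative to the other genes in every KO library. For Pmp22 the ratio ran from 3.69 to 3.84 in WT and from 3.33 to 3.565 in KO, and for Sox10 from -2.50 to -2.25 in WT and from -2.76 to -2.61 in KO, so both took a smaller share. For Prx, Mag and S100b 2 of 3 KO libraries lay below every WT library and the other did not, so the groups overlapped. For Mag, KO 2 was practically level with WT 2, at -2.917 and -2.916. These ratios share their terms with each other and were not tested. Counts from whole tissue do not say in which cells the proportions differed.

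**Figure D3:**
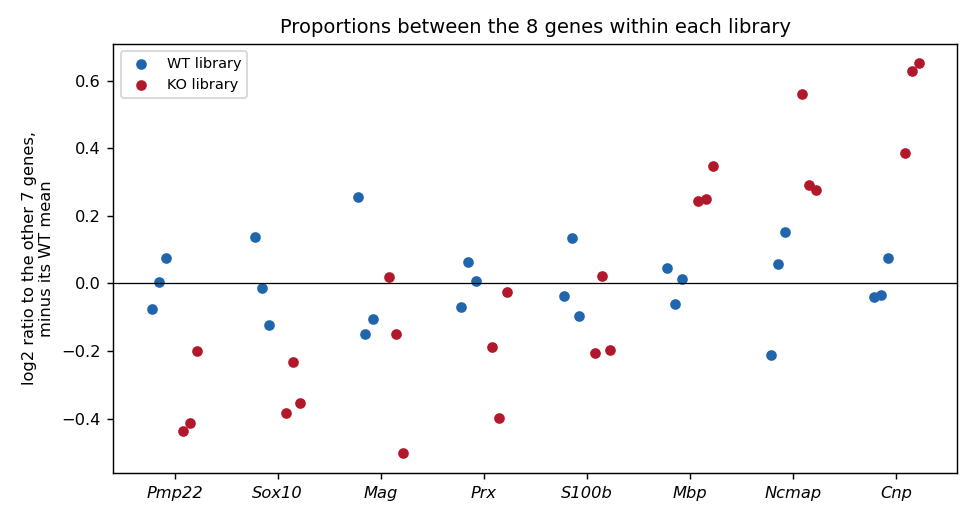
Log2 ratio of each gene to the geometric mean of the other 7 genes within a library, minus the gene's WT mean (vertical axis), for WT and KO libraries (points). KO libraries lie above the WT libraries for Mbp, Ncmap and Cnp, and below them for Pmp22 and Sox10. For Mag, Prx and S100b 1 KO library each lies among the WT libraries and 2 lie below them, KO 2 of Mag practically level with WT 2.

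Beyond the 8 genes, 7 lists of Schwann cell and nerve genes held 89 distinct genes, of which 83 were tested. Of these, 37 were lower in KO and 6 higher by edgeR (FDR under 0.05), against 8.48% lower and 9.15% higher over all genes. Their median log2 fold change was -0.47, and these lists too were chosen with earlier results of these data known. No member of the myelin structure, myelin lipid or transcription factor lists was called higher.

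Other structural genes of peripheral myelin moved like the 8, with 11 of 12 lower, none higher and a median log2 fold change of -1.41. Pmp2, a fatty acid-binding protein of myelin, went from 7.04 ± 0.129 CPM in WT to 1.16 ± 0.351 CPM in KO (6.30-fold lower, edgeR FDR 1.47e-06). Cldn19, the claudin of Schwann cell tight junctions, was at -1.54 and Mal, a proteolipid of compact myelin, at -1.51 (edgeR FDR 1.07e-06 and 1.47e-06). Partners of periaxin fell less by point estimate: Drp2 was at -0.93 and Dag1, the dystroglycan gene, at -0.82 (edgeR FDR 5.58e-05 and 0.000182). The gap junction gene Gjb1 was at -1.30 (edgeR FDR 0.000742). Cd9, a tetraspanin of many cell types, did not pass, with 45.9 CPM in KO and 48.6 CPM in WT (edgeR FDR 0.687). Drp2, Dag1, Gjb1 and Cd9 were named after their values were seen.

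Of 9 enzymes of myelin lipids 5 were lower and none higher. Ugt8a, which makes the galactolipid typical of myelin, had 17.3 ± 1.44 CPM in WT and 4.23 ± 0.0168 CPM in KO, which is -2.03 on the log2 scale (SE 0.13, edgeR FDR 2.14e-07). Fa2h, which hydroxylates its fatty acids, was at -1.53, Gal3st1, which sulfates it, at -1.78, and Cers2, which makes very long-chain ceramides, at -0.59 (edgeR FDR 8.25e-06, 0.00481 and 0.00208). Aspa, which frees acetate for lipid synthesis, was the fifth. Leaving out KO 1, KO 2, WT 1 or WT 2 ended the call of Aspa (FDR 0.0516, 0.138, 0.0626 and 0.071), and leaving out KO 2 that of Cers2 (FDR 0.0758), so that 3 remained called without KO 2. The 4 genes of the general sphingolipid route, Sptlc1, Sptlc2, Degs1 and Kdsr, did not pass, with log2 fold changes of -0.21 to 0.41. Aspa and these 4 were named after their values were seen.

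Of 13 tested transcription factors and coregulators of the lineage, 5 were lower and none higher. Egr2, the partner of SOX10 at myelin genes, had 10.3 ± 0.784 CPM in WT and 5.37 ± 0.259 CPM in KO, a change of -0.93 (SE 0.13, edgeR FDR 0.000263). Its coregulator genes Nab2 and Nab1 were at -0.95 and -0.47 (edgeR FDR 0.000571 and 0.0133), and Zeb2, a repressor of inhibitors of myelination, at -1.13 (edgeR FDR 3.77e-05). Pou3f1, an early promyelinating factor named after its values were seen, was the fifth, with 24 counts over KO and 52 over WT (edgeR FDR 0.0259). Nab1 and Pou3f1 did not pass when KO 2 was left out (FDR 0.201 and 0.123), nor under DESeq2's Wald test (adjusted p = 0.0787 and 0.0702), which called 3 of the list. Pou3f1 was also lost without WT 1 (FDR 0.18). Yy1, the most abundant of the list over all libraries but not in WT, did not pass, at 12.3 CPM in KO and 11.1 CPM in WT (edgeR FDR 0.415). Egr2 is also an early response gene of many stimulated cells, and counts from whole tissue do not say in which cells it was lower.

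Among 15 tested ligands and receptors between axon and Schwann cell, 6 were lower and 1 higher, with a median log2 fold change of -0.59. Dhh, the hedgehog ligand that Schwann cells send to the nerve sheath, had 7.53 ± 0.247 CPM in WT and 2.24 ± 0.304 CPM in KO, a change of -1.77 (SE 0.17, edgeR FDR 7.56e-06). Erbb3, the neuregulin receptor of Schwann cells, was 2.61-fold lower, and Lgi4, a secreted Schwann cell ligand needed for myelination, 2.13-fold lower (edgeR FDR 0.000326 and 0.000346). Cntf, a neurotrophic factor stored in Schwann cells, was at -1.49 (edgeR FDR 0.0174), but did not pass when KO 3 (FDR 0.117) or WT 1 (FDR 0.211) was left out. Ret, a receptor of autonomic and sensory neurons, was the higher member, with 4.67 ± 0.476 CPM in KO and 1.09 ± 0.107 CPM in WT (log2 fold change 2.12, edgeR FDR 9.49e-06). Without WT 1, 5 were lower and 2 higher. The ligand gene Nrg1, with at most 12 counts in a library, was not tested.

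Of 17 genes of the node of Ranvier and its flanks 5 were lower and 2 higher, the latter near the 9.15% of all genes called higher. Gldn, the gliomedin that Schwann cells deposit at the node, was at -2.02 and Cadm4, the Schwann cell adhesion molecule of the internode, at -1.60 (edgeR FDR 6.49e-06 and 1e-06). Cadm3, its binding partner, was at -1.44, and Nfasc, the neurofascin gene used by both axon and glia, at -1.32 (edgeR FDR 3.21e-06 and 7.78e-05). The fifth lower member was Kcna2, an axonal potassium channel, at -1.14 (edgeR FDR 0.000841), named after its values were seen. Of the higher members, Cntn1, an axonal adhesion molecule of the paranode named after its values were seen, had 117 counts over the KO libraries and 13 over WT. Of 9 regulators mutated in demyelinating neuropathy, 2 were lower and 1 higher, again near the background of higher calls. Ndrg1 was at -0.75 and Sh3tc2 at -0.88, while the lipid phosphatase gene Mtmr2 was at 0.73 (edgeR FDR 0.000437, 0.00166 and 0.00095). Ndrg1 was lost without KO 2 (FDR 0.064).

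Genes of non-myelinating, immature or repair Schwann cells had 3 of 8 tested members lower and 2 higher. Scn7a, a sodium channel gene of non-myelinating Schwann cells, was at -1.05, Gfap at -1.33 and Shh, which repair cells can make, at -0.76 (edgeR FDR 0.0112, 0.0259 and 0.00979). Without KO 2 none of these 3 passed (FDR 0.116, 0.125 and 0.123), and the only member then called was Gap43. Gfap was also lost without WT 1 (FDR 0.151) and WT 3 (FDR 0.0716), and the DESeq2 Wald test called neither Gfap nor Shh (adjusted p = 0.0867 and 0.0563). Gap43, a growth-associated protein of neurites and immature Schwann cells, was 3.22-fold higher, with 3.38 ± 0.0344 CPM in KO and 1.06 ± 0.0972 CPM in WT (edgeR FDR 9.31e-05). L1cam, named after its values were seen, was at 0.71 (edgeR FDR 0.0374) and was lost without KO 2 (FDR 0.374), WT 2 (FDR 0.0508) or WT 3 (FDR 0.0805) and under DESeq2 (adjusted p = 0.126). Ncam1, the most abundant of the list over all libraries, had 3.67 CPM in KO and 3.36 CPM in WT and did not pass (edgeR FDR 0.661).

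Neuronal genes went in the other direction from the 8. Of 13 tested, 11 were higher and none lower in KO, with a median log2 fold change of 2.48. That median is the same with Elavl4, which had 154 counts in KO and none in WT, set at its value against 3 counts assumed for the WT libraries together. Prph, the peripheral neuron filament, was at 3.80, Tubb3, a neuronal tubulin, at 2.48, Snap25, of the synaptic vesicle machinery, at 2.54 and Uchl1 at 2.04 (edgeR FDR 1.69e-07, 1.95e-06, 1.36e-06 and 2.48e-06). Ina and Elavl3, named after their values were seen, did not pass, with 47 and 87 counts over KO against 6 and 24 over WT (edgeR FDR 0.0512 and 0.18). The summed level of the list was 49.7 to 58.4 CPM in KO libraries and 14.5 to 17.1 CPM in WT libraries. The 8 genes and the tested genes of this neuronal list thus had opposite signs in the same libraries. Axonal genes of the node list went both ways, with Kcna2 at -1.14 and Cntn1 at 2.54 on the log2 scale. Whether the neuronal RNA came from the nerves that held the myelin genes cannot be read from whole tissue. Perineurial and endoneurial cells, the other cells of the nerve, had no marker of 7 lower and 1 higher, Etv1 at 1.19 (edgeR FDR 0.000379). These counts are near the 8.48% lower and 9.15% higher over all genes tested. The list median was -0.40 on the log2 scale. In 3 of the 7 all KO libraries lay below all WT libraries, against 19.2% of all genes tested. The list summed to 19.8 to 22.9 CPM in KO and 20.7 to 22.8 CPM in WT. With 6 separate libraries 2 of these 7 were lower, and without WT 1 or without the filter on low counts 1 was. Of 5 satellite glia markers Apoe and Slc1a3 were lower, at -0.88 and -1.71 (edgeR FDR 0.000138 and 0.00717). Glul, which muscle also expresses, was higher at 0.82 (edgeR FDR 0.000298). Slc1a3 rests on 9 to 44 counts in a library, and counts from whole tissue do not say in which cells these markers differed.

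**Figure D4:**
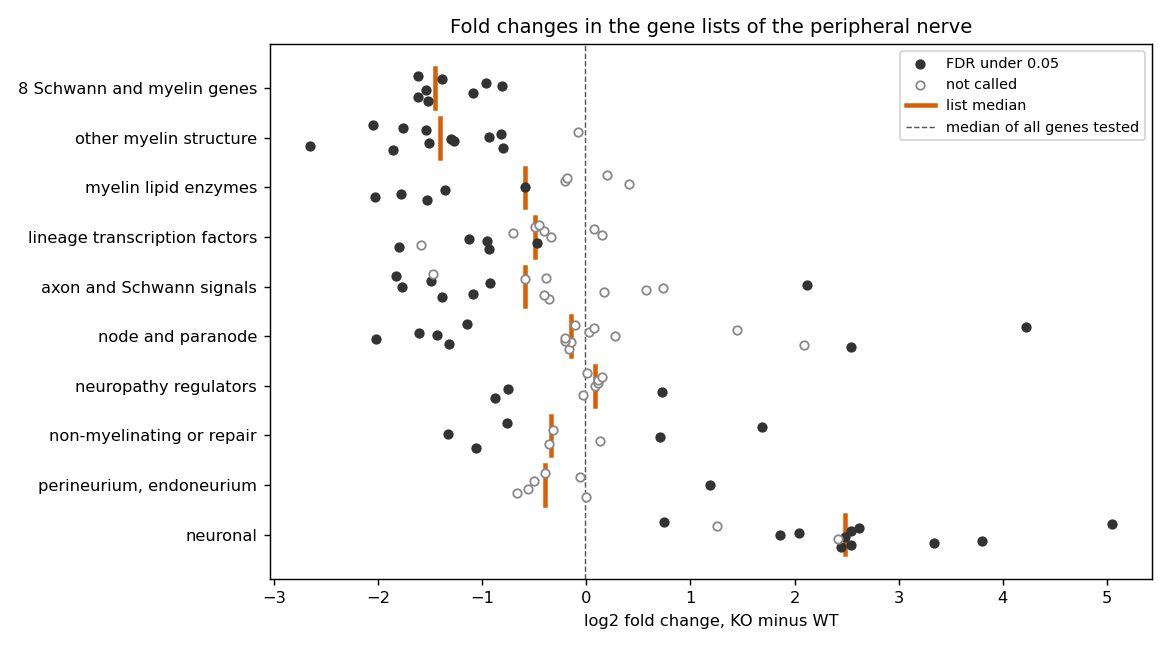
Log2 fold changes, KO minus WT (horizontal axis), of the tested genes in 10 lists of Schwann cell, nerve and neuronal genes (rows). Called genes are filled, genes not called are open, and the list median is a bar. A gene without counts in WT stands at its value against 3 counts. The 8 genes and the other myelin structure genes lie left of the dashed median of all genes tested, and the neuronal genes lie right of it.

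Other cell types express some of the 8 genes, and their markers were read in the same libraries. Over all genes tested, 8.48% were called lower and 9.15% higher. Melanocytes share Sox10 and S100b, and their defining genes Mlana, Pmel and Dct had at most 2, 8 and 4 counts in a library, while Mitf, also used by other cells, had 1.89 CPM in KO and 2.05 CPM in WT (edgeR FDR 0.802). Oligodendrocytes share the myelin genes, and the central myelin gene Mog had at most 2 counts and Nkx6-2 4, with 2 of the 3 tested markers lower (Mobp at -0.94 and Tspan2 at -0.56, edgeR FDR 0.000654 and 0.00836, the latter lost without KO 2, FDR 0.12). Mobp was not sparse, at 4.61 CPM in KO and 8.91 CPM in WT. Chondrocytes share S100b, and none of 7 tested markers was called, against 17.6% of all genes tested. The chondrocyte list summed to 12.2 to 14.5 CPM in KO and 15.3 to 16.1 CPM in WT. Adipocytes also share S100b, and 5 of 7 markers were lower, namely Adipoq, Cfd, Cidec, Retn and Pparg, and 3 passed when KO 2 was left out or DESeq2 was used. Retn, named after its values were seen, had 24 counts over KO and 45 over WT and was lost in 7 of the 11 alternatives that tested it. Their sums overlapped, at 296 to 369 CPM in KO and 296 to 440.0 CPM in WT, most of it Fabp4. Salivary epithelium can express Sox10, and 9 of 11 markers were higher. The median log2 fold change of this list was 3.24, or 2.81 with Prol1, absent from WT, at its floor. The salivary list summed to 562 to 599 CPM in KO and 79.8 to 84.3 CPM in WT, and its part in the level of Sox10 was not tested.

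The counts in the next lists, too, stand against 8.48% of all genes tested called lower and 9.15% called higher. Fibroblasts share Pmp22, and 4 of 8 markers were lower (Col3a1, Dpt, Pi16 and Col1a2), with sums of 402 to 425.5 CPM in KO and 525 to 565 CPM in WT. None of those 4 passed without KO 2, and 2 passed without WT 1. Endothelial genes had 2 of 8 higher (Pecam1 and Cldn5) and 2 lower (Kdr and Emcn) and summed to 331 to 343 CPM in KO and 288 to 291 CPM in WT. Emcn did not pass without KO 2 (FDR 0.11), and with 6 separate libraries 4 were higher. Fast muscle genes had 5 of 12 higher (Acta1, Myh2, Tnnt3, Atp2a1 and Pvalb, the last named after its values were seen), or 1 without KO 2, and summed to 7566 to 8806 CPM in KO and 4985 to 6892 CPM in WT. The count of fast muscle genes called higher was 8 with the replicate block and 11 without the filter on low counts. Olfactory tissue has its own SOX10-positive glia. Of 7 tested markers of olfactory neurons 3 were lower, Gfy at -3.92, Stoml3 at -3.69 and Omp at -1.93 (edgeR FDR 6.92e-07, 0.000127 and 0.000251). The other 4 were not called and lay between -1.01 and 0.61, and the list summed to 3.52 to 3.73 CPM in KO and 9.61 to 10.6 CPM in WT. Of 4 tested markers of olfactory ensheathing glia 1 was lower, Frzb at -2.28 (edgeR FDR 3.24e-06), which other cells express too, and Npy, untested, had 20 counts over KO and none over WT. The other 3 were not called and lay between -1.31 and 1.54. With 6 separate libraries 2 of this list were lower and 1 higher. For these libraries, the part of muscle, salivary, fibroblast, adipocyte and olfactory RNA in the lower levels of the 8 genes was not tested.

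The genes whose pattern over the 6 libraries was most like the mean of the 8 standardised genes were Meox2, Obp2b, Serpind1, Klk4 and Car3, each with a Pearson correlation of 0.998 or 0.999. They span unrelated roles: Meox2 is a homeobox factor of muscle and vessels, Obp2b an odorant-binding protein, Klk4 a protease of enamel and Car3 a carbonic anhydrase of muscle and fat. Meox2 had 9.60, 9.50 and 9.37 CPM in KO 1 to 3 and 15.2, 15.3 and 14.6 CPM in WT 1 to 3. Ambn, which encodes ameloblastin of the enamel matrix and was named after its values were seen, came next, with 143 to 145 CPM in KO libraries and 569 to 657 CPM in WT libraries. The gap junction gene Gjb1 of the myelin structure list, also named after its values were seen, ranked 8 with a correlation of 0.998. The part of tooth or nasal tissue in the levels of the 8 genes was not tested. Such likeness is common here, since 646 of 13496 named genes had a correlation over 0.95 with the same mean. With 6 libraries in 2 groups, the correlation mostly records the difference between the groups.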

How the data were processed

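RNA of temporomandibular joint tissue was sequenced in 6 mouse libraries, after TRIzol extraction and a bead kit for mRNA per the labels' protocols. Per the submitters' processing notes, build mm39 and the tools StringTie 2.1.5 and HISAT2 2.1.0 were used, in roles not named. Annotation, strand setting and handling of multi-mapping reads: not given in the sources used here. Raw counts per gene symbol, not normalized, were deposited by the authors for 22032 genes. The reference used here for transcript lengths, overlaps and promoters is another build, GRCm38.

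Groups and replicate numbers came from the sample titles. For each pair of libraries in a group, the variance between both libraries was set against that of sampling read pairs, at 2 counts a pair, over nuclear genes that reached 20 counts in sum. Median ratios were 0.941 for KO 1 and KO 3 and 0.964 for WT 2 and WT 3, and 1.31 to 1.63 for other pairs; pairs under 1.1, a limit chosen with earlier ratios known, were summed. Whether each library is its own animal is not in the labels; p-values therefore reflect the spread of these samples alone, possibly a technical one. The same-numbered KO and WT libraries did not pair, with correlations of their deviations of -0.056, -0.0844 and 0.0316.

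The test was edgeR 4.0.16 in R 4.3.3: filterByExpr with a minimum count of 10 (14632 genes), TMM, the robust quasi-likelihood fit, and Benjamini-Hochberg adjustment over all genes tested, called at an FDR under 0.05. It was tested on simulated data first. SE is the absolute log2 fold change over the root of F, and intervals are 95%. Per-library CPM uses the TMM factor of the library's sample. Alternatives were 6 separate libraries, those with a replicate block, DESeq2 1.42.0 size factors or its Wald test, no mitochondrial genes, no filter and leaving out each library.

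Genes named are the 8, Igf2bp2, up to 4 of smallest p and the most abundant of each list, and the 5 most alike in pattern; some that this rule takes, or that a count in the text includes, are not reported here. The 8 genes, the lists and the tests were chosen with earlier results of these data known. No p was adjusted over a list alone.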

Additional observations from a re-analysis of the deposited data

How the results depend on the processing

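All 8 Schwann cell and myelin genes stayed lower and called under each of the 12 alternatives. Of these, leaving out KO 2 or WT 1 leaves that group with 1 sample, so the spread comes from the other group alone. Their log2 fold changes moved within -1.65 to -1.60 for Pmp22, -1.101 to -1.004 for Mbp, -1.55 to -1.42 for Prx, -1.68 to -1.31 for Mag, -0.88 to -0.78 for Cnp, -1.06 to -0.87 for Ncmap, -1.51 to -1.33 for S100b and -1.69 to -1.47 for Sox10. Their highest FDR, 0.0196 for Mbp, came without KO 2. With 6 separate libraries 3452 genes differed in all, with the replicate block 2941, and the block changed no call among the 8. The block fit tested 77 genes of the nerve lists and called 37 lower and 6 higher, of which 36 and 6 were called in the fit reported. Another scaling moved the median fold change of all genes by at most 0.0124. The count of genes that differed, 2580, was 1634 with the DESeq2 Wald test and ranged from 1149 (without KO 2, with 1 KO sample left) to 2434 when a library was left out; the cause of the DESeq2 difference was not tested. Per median transcript length, which is shorter, WT levels were 471 CPM per kilobase for Pmp22, 155.5 for Mbp, 15.8 for Prx, 13.6 for Ncmap, 11.2 for Cnp, 4.66 for Sox10 and 3.65 for Mag, so Ncmap then stood above S100b (11.3).

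For 107 other genes taken by the naming rule or named beside it, 1182 of 1271 values kept their direction and their side of the threshold, 51 lost and 27 gained the call. The 11 changes of sign were all in genes without a call: Dip2a was at -0.008224 with 6 separate libraries and -0.01731 with the replicate block, and Ermn at -0.03987 with the DESeq2 Wald test. With a library left out, Dip2a ranged from -0.1094 to 0.1358, Wif1 from -0.147 to 0.1885, Mitf from -0.242 to 0.05422 and Fabp4 from -0.342 to 0.06792. Depth limits Mag and Sox10 most, with 73 to 125 counts in a KO library.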
